A study of Mus musculus with 4 samples.

Results

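The genes of 6 seminal fluid proteins, Svs2, Svs4, Svs5, Svs6, Pate4 and Ceacam10, were followed in prostate RNA of mice with conditional deletion of tumour suppressors. They were taken as every probe of the array, controls aside, that carries one of these names or an older alias. This gave 6 probes, 1 per gene, of 41174 probes in all. Svs4 is listed on the array as Svp2 and Pate4 as Svs7, and both were matched by accession.

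Seminal vesicle secretory proteins form most of the protein of rodent seminal fluid, and their genes are known for strong, androgen-dependent transcription in the epithelium of the seminal vesicle, a gland that lies against the prostate. After ejaculation the clotting members are cross-linked by a transglutaminase that the prostate secretes, and the copulatory plug forms. Other members bind sperm or the lipids of its membrane.

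In all, 4 mice aged 60 days, of the mixed strain C57BL/6:129/SVJae:FVB, were profiled without treatment on 4 two-colour arrays. The 2 mutant mice were Rb1R654W/F:Trp53F/F:PB-cre4, with 1 Rb1 allele coding for an R654W retinoblastoma protein, described in the study as deficient in E2F binding, and 1 conditional allele. The 2 null mice were Rb1F/F:Trp53F/F:PB-Cre4, so that both genotypes carried conditional Trp53 and Cre. PB-Cre4 expresses Cre from a probasin promoter, which is active in prostate epithelium. Cells without Cre keep the conditional alleles undeleted, and which cells had lost them was not measured here. RNA of each mouse was in the red (Cy5) channel and a pool of 3 wild-type mice was in the green (Cy3) channel of every array, with no dye swap, so dye effects at a single probe cannot be told apart from a difference of mouse and pool.

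The median background-subtracted red signal was 90.1 and 81.9 in mutant mice 1 and 2, against 20.5 and 55.1 in null mice 1 and 2, while the green median lay between 24.2 and 24.9 on all arrays. Null mouse 1 stood apart by its dim red channel, and each result that rests on it is given without it where that changed a call or a direction. Of 9 markers of prostate secretory epithelium, 8 had probes, and all 8 were well above background in all 4 mice, so the labelled tissue bore its markers. Tissue of this kind mixes cell types, and fewer cells of a type cannot be told apart from less RNA per cell.

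The probes that measured the genes are 60-base oligonucleotides, and their first 30 bases are shown in lower case, 5′ to 3′, since every value below rests on a single probe.
Svs2: tcagtttcgggatcaaaggaggaagtgacg
Svs4: ctagcagttctgatggttctaatatggaag
Svs5: agccggtgatgtcttcaggattcaagtttc
Svs6: ccagactgcggttcacggatttattttatt
Pate4: aaacttgtgtaatagcttctagatggagaa
Ceacam10: caaaacttcgatcataccctaatgcctgtg
In build mm7, the files place the probe of Svs2 at chr2:163978677-163978736 on the minus strand and that of Svs4 at chr2:164017992-164018051 on the minus strand. The probe of Svs6 lies at chr2:164059225-164059284 and that of Svs5 at chr2:164075133-164075192, both on the plus strand. Pate4 is elsewhere, at chr9:35502534-35502593 on the minus strand, and the Ceacam10 probe spans chr7:21570796-21574134 on the plus strand, a stretch of 3339 bases for a probe of 60.

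The promoters of the genes are shown because 4 of the 6 genes share 1 cluster on chromosome 2 while their ratios differed widely. RefSeq (GRCm38.p6) held a promoter window, 250 bases before to 50 after the start, for 5 of the 6 genes. The last 100 bases before the start are given 5′ to 3′ on the strand of the gene, with the letters TATAAA in capitals wherever they occur.
Svs2: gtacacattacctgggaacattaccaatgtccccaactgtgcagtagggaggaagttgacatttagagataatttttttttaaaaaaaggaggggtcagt
Svs4: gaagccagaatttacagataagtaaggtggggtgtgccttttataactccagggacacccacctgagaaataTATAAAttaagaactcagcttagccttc
Svs5: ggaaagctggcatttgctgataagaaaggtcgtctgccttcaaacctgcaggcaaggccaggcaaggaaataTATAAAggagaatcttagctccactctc
Svs6: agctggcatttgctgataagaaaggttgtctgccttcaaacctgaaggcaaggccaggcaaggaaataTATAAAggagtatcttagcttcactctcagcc
Ceacam10: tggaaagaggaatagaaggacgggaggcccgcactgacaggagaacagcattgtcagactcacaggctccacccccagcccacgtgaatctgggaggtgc
These stretches are chr2:164238342-164238441 (minus strand) for Svs2, chr2:164278308-164278407 (minus) for Svs4, chr2:164332665-164332764 (plus) for Svs5, chr2:164316651-164316750 (plus) for Svs6 and chr7:24777067-24777166 (plus) for the first of the 2 Ceacam10 windows in the table. The windows of Svs5 and Svs6 were alike at 93.8% of 304 aligned positions, against 60.2% for Svs4 and Svs5 and 47.3% to 59.8% for the other 8 pairs. On the gene's own strand TATAAA began 28 bases before the start of Svs4 and of Svs5 and 32 before that of Svs6, with a further match 182 bases before that of Svs4. Of all 32851 windows of this length, 2.32% held it between 50 and 20 bases before the start. In Svs2 it began 205 and 236 bases before the start, outside the stretch shown. The letters AGAACA, a half-site of the androgen response element, searched on both strands, were in the windows of Svs5, Svs6 and Ceacam10 and not in those of Svs2 and Svs4, and in 19% of all windows. A match to letters is not a measured binding site.

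Svs2, Svs4, Svs5 and Pate4 had the lowest mouse-to-pool ratios of the 6 genes in mutant mouse 1 and in both null mice. In mutant mouse 1 all 4 lay under a log2 ratio of -2, against 0.0845% of all probes, and in mutant mouse 2 that of Svs4 alone did, against 0.0322%. All 4 lay under -2 in null mouse 1, against 0.463% of all probes, and in null mouse 2, against 0.0845%. Svs6 was nearer to the pool in these 3 mice, while in mutant mouse 2 Svs5 (-0.10) was nearer than Svs6 (-0.43). For mutant mouse 1 the place of Svs6 depends on the processing. In the processed signals deposited by the authors it was at -4.30 there, below Svs2 (-4.04) and Svs4 (-4.13). Ceacam10 was above it in every mouse. No probe of the 6 genes passed the test at an adjusted p under 0.05 in any comparison, mutant with null or either genotype with the pool.

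Svs2 encodes a clotting protein of the plug, the mouse counterpart of semenogelin, which also acts on sperm. Its log2 ratio of mouse over pool was -4.03 and -0.80 in mutant mice 1 and 2, against -3.99 and -3.45 in null mice 1 and 2. Mutant mouse 2 was the highest, and the other 3 mice lay within a range narrower than their distance to it, so the genotypes overlapped. The background-subtracted signal of the mouse channel was 6938 and 50572 in mutant mice 1 and 2, against 1970 and 6610 in null mice 1 and 2, with the pool channel at 23846 to 29034. Such signals are not scaled between channels or arrays, whereas the ratios are normalised within each array. In mutant mouse 2 the unscaled mouse signal of Svs2 was above that of the pool, although the normalised ratio was below 0. The same held there for Svs5, Svs6 and Pate4.

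Svs4 encodes a small secretory protein of the fluid. Its log2 ratio was -4.14 and -2.50 in mutant mice 1 and 2, against -5.30 and -4.55 in null mice 1 and 2. Both mutant mice lay above both null mice, which held for no other gene of the 6. Among all 24852 probes tested, 16.7% had both mutant arrays above both null arrays, so 1 of 6 is near that background. Mutant over null was 1.60 ± 0.59 (SE of the limma fit, log2, 2 mice each), with an adjusted p of 0.985 in limma. Svs4 ranked between the lowest and the fourth lowest of all probes in each of the 4 mice.

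Svs5, a further secretory protein of the cluster, had log2 ratios of -4.69 and -0.10 in mutant mice 1 and 2, against -5.99 and -3.72 in null mice 1 and 2. Mutant mouse 2 was close to the pool and mutant mouse 1 lay between the null mice. The mouse channel of this probe was 452786 in mutant mouse 2, against 58969 in mutant mouse 1 and 5992 and 60068 in null mice 1 and 2. The pool channel of Svs5 was 115451 on the array of mutant mouse 2 and 252398 to 308267 on the other 3 arrays, although the same pool was on each. That is 1.35 log2 units below the mean of the others, and its SD of 0.69 over the 4 arrays was larger than for 99.8% of 23126 spots well above background in the pool, whose median SD was 0.08. The ratio of Svs5 in mutant mouse 2 therefore contains a low pool reading as well as a high mouse reading, and its part in the difference was not tested. For the other 5 genes the SD of the pool channel was 0.05 to 0.25. Svs2 and Pate4 also had their lowest pool reading on the array of mutant mouse 2, at -0.29 and -0.25 from the mean of the others. The SD of 0.25, that of the dim Ceacam10 spot, was larger than for 94.6% of those spots.

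Pate4, a small protein of mouse seminal fluid that binds sperm, varied almost as widely as Svs5. Its log2 ratio was -5.54 and -0.79 in mutant mice 1 and 2, against -6.39 and -3.81 in null mice 1 and 2. Mutant mouse 1 lay within the range of the null mice and mutant mouse 2 above it. Its mouse signal was 23299 in mutant mouse 2 and 94.3 in null mouse 1, with the pool channel at 11483 to 13900.

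Svs6 encodes a secretory protein of the same cluster. It had log2 ratios of -1.85 and -0.43 in mutant mice 1 and 2, against -1.09 and -0.32 in null mice 1 and 2. Mutant mouse 1 was the lowest, and its mouse channel was not well above background, at a background-subtracted signal of 21.0. In null mouse 1 that signal was 16.6, although the spot was marked as well above background. The probe was dim in all arrays, with the pool channel at 116 to 127. In the processed signals deposited by the authors the same ratios were -4.30 and -0.71 in the mutant mice and -2.67 and -0.53 in the null mice. The size for Svs6 thus depends on the background correction, and so does which arrays lie under -2.

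Ceacam10 encodes a secreted protein of the carcinoembryonic antigen family that is found in mouse seminal fluid. Its log2 ratio was 0.73 and 2.60 in mutant mice 1 and 2, against 0.15 and 2.24 in null mice 1 and 2. All 4 mice were above the pool, and mouse 2 of each genotype stood well above mouse 1. Of all probes tested, 16.7% were above 0 in every mouse. The pool channel was dim, at 29.9 to 43.6, and the mouse channel reached 1536 in mutant mouse 2.

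**Figure D1:**
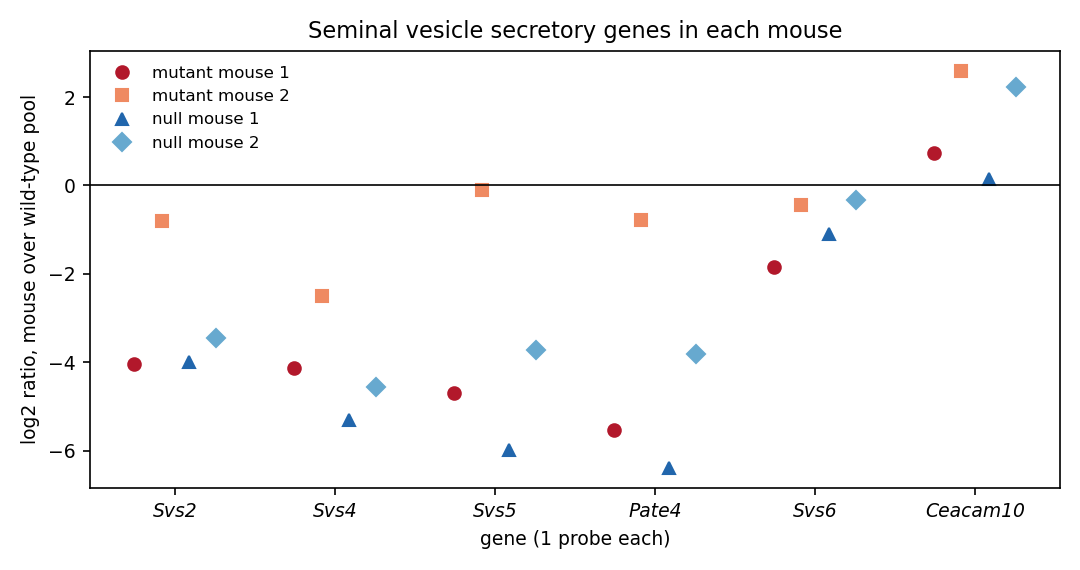
The log2 ratio of mouse over wild-type pool (vertical axis) is plotted for each of the 6 genes (horizontal axis) with 1 point per mouse. Mutant mouse 2 is the highest point for every gene except Svs6, where null mouse 2 at -0.32 is above its -0.43.

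**Figure D2:**
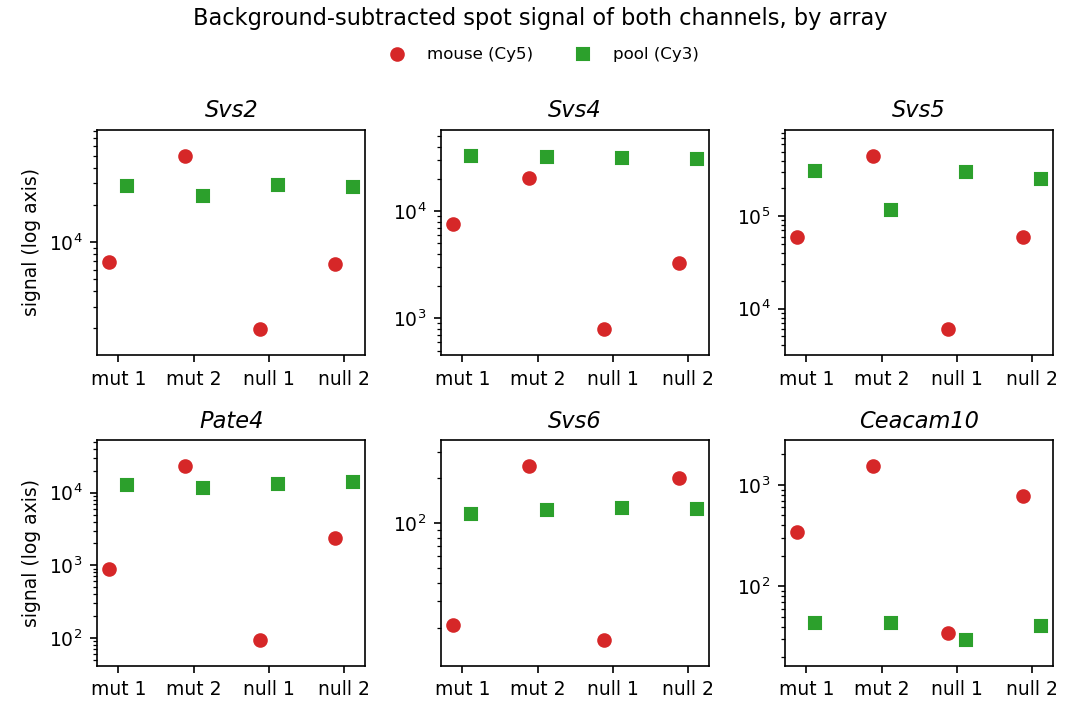
Background-subtracted spot signal (vertical log axis) of the mouse channel (circles) and the pool channel (squares) is shown by array for each gene. The pool squares differ most for Svs5, with 115451 on the array of mutant mouse 2, and the mouse circles differ widely between arrays. The signals are not normalised between channels or arrays.

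Between mutant and null mice, 5 of the 6 genes had higher means in the mutant mice and Svs6 a lower one. Mutant over null was 1.31 ± 1.05 for Svs2 (SE of the limma fit, log2, 2 mice each), 2.47 ± 1.62 for Svs5 and 1.94 ± 1.71 for Pate4. It was 0.47 ± 0.90 for Ceacam10 and -0.44 ± 0.54 for Svs6. No probe of the 6 passed, with adjusted p-values of 0.985 to 0.986 in limma, and 0% of all 24852 probes passed. At an unadjusted p under 0.05, Svs4 was the only gene of the 6 to pass (0.0419), against 2.18% of all probes.

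The direction between the genotypes rested on mutant mouse 2 for several genes. Without that mouse, mutant over null turned to -0.31 for Svs2, -0.43 for Pate4 and -0.47 for Ceacam10. Without it Svs4 was at 0.79, against 1.60 with all mice, and Svs5 at 0.17, against 2.47. The median over the 6 genes was 1.46 with all mice and -0.37 without mutant mouse 2, against 0.01 over all 16826 gene rows with all mice. Without mutant mouse 1, Svs6 turned to 0.27, and without null mouse 1, Ceacam10 turned to -0.58. With 2 arrays in each genotype, 0.333 is the smallest p that an exact two-sided permutation test allows.

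For each of the 6 genes the 2 mutant mice differed from each other by more than the genotype means did. For Svs4 the values were close, 1.63 between the mutant mice and 1.60 between the genotypes. A difference of single mice varies more than a difference of means, and the share of all probes with this pattern was not counted. Mutant mouse 2 over mutant mouse 1 was 4.75 on the log2 scale for Pate4, the largest such difference among 24852 probes. It was 4.59 for Svs5 and 3.23 for Svs2, which came next in that order. Differences over 2 were seen for 3 of the 6 genes and for 0.0604% of all probes. Svs6 differed by 1.42 and Ceacam10 by 1.87. Between the null mice, null mouse 2 over null mouse 1 was 2.58 for Pate4, 2.27 for Svs5 and 2.09 for Ceacam10. For Svs2, Svs4 and Svs6 that difference was 0.54 to 0.77. The order of the mice was alike for Svs5 and Pate4, with mutant mouse 2 the highest, then null mouse 2, mutant mouse 1 and null mouse 1. Ceacam10 had the same order at positive ratios.

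Against the wild-type pool, the mean of the 4 mice was lower for 5 genes and higher for Ceacam10. The mean log2 ratio of the 4 mice was -4.12 ± 0.30 for Svs4 (SE of the limma fit, n = 4) and -4.13 ± 0.86 for Pate4. It was -3.63 ± 0.81 for Svs5, -3.07 ± 0.52 for Svs2, -0.92 ± 0.27 for Svs6 and 1.43 ± 0.45 for Ceacam10. Adjusted p-values in limma were 0.0902 for Svs4 and 0.193 to 0.243 for the other 5, so 0 of 6 passed, against 0.0121% of all probes. At an unadjusted p under 0.05 all 6 passed, against 17.6% of all probes. With each array centred on its median in place of loess, Svs2 (adjusted p = 0.0482) and Svs4 (0.0347) passed. With that centring the median of all probes was 0.37, against 0.02 with loess, and the test gave 4183 probes called higher and 67 lower, against 0 higher and 3 lower with loess.

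The ratios of 5 of the 6 genes were below 0 in every mouse, against 14.9% of all probes, but with median centring the ratios of mutant mouse 2 were above 0 for Svs2 (0.35), Svs5 (1.24), Svs6 (0.03) and Pate4 (0.28), and that of null mouse 2 for Svs6 (0.04). Log2 ratios under -2 on at least 3 arrays were found for 4 of the 6 genes and for 15 of all probes, 0.0604%. These are Svs2, Svs4, Svs5 and Pate4, and median centring left them under -2 in mutant mouse 1 and both null mice too.

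The genotypes gave different estimates against the pool. In the mutant mice the mean log2 ratio was -3.32 ± 0.42 for Svs4, -3.16 ± 1.21 for Pate4, -2.41 ± 0.74 for Svs2 and -2.39 ± 1.15 for Svs5 (SE of the limma fit, n = 2). In the null mice it was -4.92 ± 0.42 for Svs4, -5.10 ± 1.21 for Pate4, -3.72 ± 0.74 for Svs2 and -4.86 ± 1.15 for Svs5. The fit pools the spread over both genotypes, so each gene has the same SE in both. The SD of the 2 mutant mice was 3.36 for Pate4, 3.25 for Svs5, 2.29 for Svs2 and 1.16 for Svs4. The SD of the 2 null mice was 1.82, 1.61, 0.38 and 0.53 in that order. Pate4 in the null mice had the lowest mean of all probes. Svs6 averaged -1.14 ± 0.38 in the mutant mice, against -0.70 ± 0.38 in the null mice. Ceacam10 averaged 1.66 ± 0.64 in the mutant mice, against 1.19 ± 0.64 in the null mice. No gene of the 6 passed in either comparison, against 0% of all probes in each. The lowest adjusted p among them in the null mice was 0.271, for Svs4, and in the mutant mice 0.453. At an unadjusted p under 0.05, 5 of the 6 passed in the mutant mice, against 10.6% of all probes, and 4 of the 6 in the null mice, against 10.2%. Both comparisons share the same pool as control, so their values are given side by side and no overlap is drawn from them. The pool counts as 1 control sample, and the spread between wild-type mice is not in these tests.

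**Figure D3:**
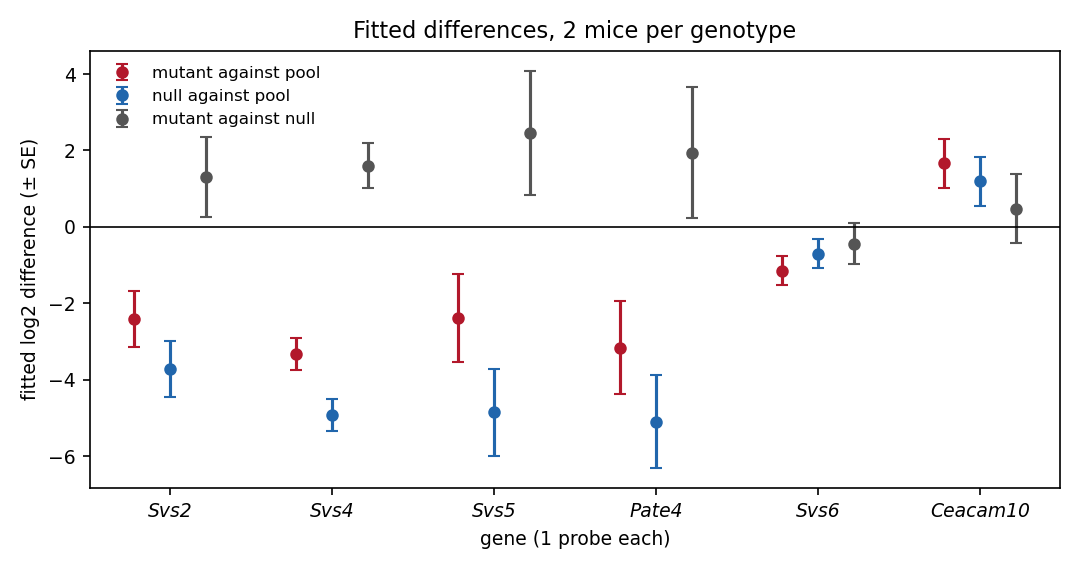
Fitted log2 differences (vertical axis) are shown for mutant against pool, null against pool and mutant against null for each gene. Bars are 1 standard error of the fit, which pools the spread over both genotypes. The bars of Svs5 and Pate4 are the longest, and the 5 lower genes are under 0 against the pool in both genotypes.

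The authors' deposited table gives mean ratios to the pool as linear values, without p-values. In the authors' deposited table Svs5 averaged 0.401 for mutant mice against 0.0381 for null mice, and Pate4 averaged 0.272 against 0.0330. Svs2 averaged 0.289 for mutant mice against 0.0682 for null mice in the authors' deposited table, and Svs4 0.105 against 0.0295. The standard errors of the mutant means in the authors' deposited table were 0.372 for Svs5, 0.252 for Pate4 and 0.238 for Svs2, nearly as large as those means. Svs6 averaged 0.304 for mutant mice against 0.390 for null mice, and Ceacam10 5.88 against 4.50, in the authors' deposited table. A mean of linear ratios gives a high mouse more weight than a mean of log2 ratios. Mutant over null in the authors' deposited table was 10.52 for Svs5 and 8.22 for Pate4. From the log2 fit these folds were 5.52 and 3.84. The linear means also gave the wider difference for Svs2 and Svs4, but not for Svs6 or Ceacam10.

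Along chromosome 2 the cluster runs Svs2, Svs3b, Svs4, Svs3a, Svs6 and Svs5, with Wfdc15b before Svs2 and Slpi after Svs5. Wfdc15b, a whey acidic protein gene, had log2 ratios of -2.19 and -1.28 in mutant mice 1 and 2, against -2.59 and -2.47 in null mice 1 and 2. Its mean over the 4 mice was -2.13 ± 0.17 (SE, n = 4, adjusted p = 0.0936 in limma). Slpi, a serine protease inhibitor of secretions, was at -0.17 and 2.71 in mutant mice 1 and 2, against -1.06 and -0.65 in null mice 1 and 2. Its mouse channel was not well above background in null mouse 1. As for 5 of the 6 genes, mutant mouse 2 was the highest for Wfdc15b and Slpi. Among the other neighbours bright enough to be tested, it was the highest for Eppin and Matn4. It was the lowest for Pigt (-0.47), Wfdc2 (-1.11) and Dbndd2 (-0.41), and neither for the rest. The share of all probes with mutant mouse 2 the highest was not counted. Sdc4 and Sys1, farther along, lay between -0.55 and 0.54 in all mice. Of 19 neighbours listed, 17 had a probe, 12 were bright enough to be tested and 0 passed in any comparison. Among the 15 genes of the plotted stretch with a probe, log2 ratios under -2 were found for Wfdc15b, Svs2, Svs4 and Svs5 and for no other. For Svs6 that depends on the background correction.

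**Figure D4:**
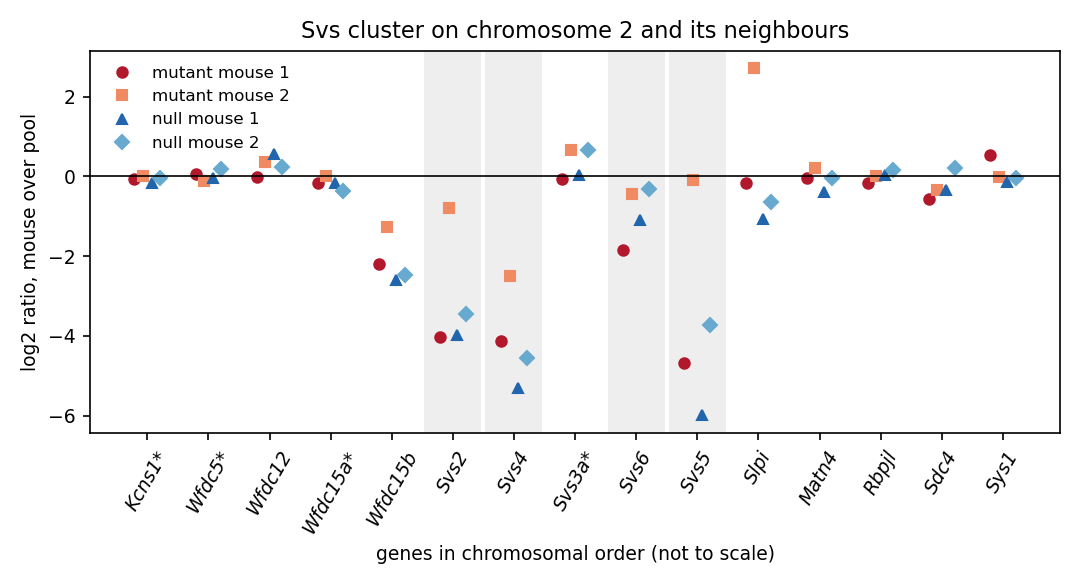
Log2 ratios of mouse over pool (vertical axis) are shown for 15 genes in chromosomal order around the cluster (horizontal axis, not to scale), with 1 point per mouse. Grey bands mark Svs2, Svs4, Svs6 and Svs5, and an asterisk marks a gene left out of the tests as too dim. The lowest points are those of Svs5 and Svs4.

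Other genes of the seminal vesicle were barely detected. Of 6 such genes 5 had a probe, and 0 were bright enough to be tested. Svs1, Sva, Spinkl and Pax2 were not well above background in either channel on any array. Svs3a was well above background in the mouse channel of mutant mouse 2 and null mouse 2 alone, with mean signals of 148.9 and 127.8, and in the pool channel on no array. The genes of semen clotting and its control had no gene called among the 7 with a probe. Tgm4, the prostate transglutaminase that cross-links the clot, was at 0.42 and 0.02 in mutant mice 1 and 2, against -0.03 and -0.19 in null mice 1 and 2. Serpine2, a serpin known in mouse seminal fluid, was at -2.12 and 0.02 in mutant mice 1 and 2, against -1.83 and -1.37 in null mice 1 and 2. Mutant mouse 2 was thus the highest for Serpine2 but not for Tgm4.

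The median log2 ratio over the prostate secretory markers was 0.33 and 0.14 in mutant mice 1 and 2, against -0.24 and -0.21 in null mice 1 and 2, and 0 of them passed in any comparison. The marker Tgm4 lay near the pool in all 4 mice, and so did the androgen receptor target Tmprss2, at 0.03 and 0.04 in mutant mice 1 and 2, against 0.42 and -0.25 in null mice 1 and 2. All 6 genes of the list of the androgen receptor and its targets were tested, and 0 passed. Markers of the epididymis and vas deferens were mostly at background, with 0 of 10 well above background in all 4 mice and 2 of 10 past the filter. Akr1b7, an aldo-keto reductase known from the vas deferens, was the only gene of any list past the threshold. Its mouse channel was well above background in every mouse except null mouse 1. Its log2 ratios were -1.93 and -1.73 in mutant mice 1 and 2, against -1.85 and -1.88 in null mice 1 and 2 (mean -1.85 ± 0.09, SE, n = 4, adjusted p = 0.0433 in limma). The call was not stable, since no probe at all passed for all 4 mice against the pool with the replicate number as a block, with a trended prior, without the filter on dim probes or without either mutant mouse. Adam7, a sperm maturation protein of the epididymis chosen here after its values were seen, was the other gene of the list bright enough to be tested. Its log2 ratios were -0.81 and 0.07 in mutant mice 1 and 2, against -0.63 and -0.58 in null mice 1 and 2 (adjusted p = 0.251 in limma). The mouse channel of Adam7 was well above background in mutant mouse 2 and null mouse 2 alone. Lcn5, Lcn8 and Gpx5 were the 3 genes of the list not well above background in any mouse. How much tissue of the seminal vesicle or vas deferens was in each sample, and its part in the ratios of the 6 genes, was not tested.

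The 5 genes nearest to the median profile of the 6 genes were Cdo1, Pfkfb3, Bpgm, Cyp4a12a and Wfdc15b, among 13966 named genes past the filter. The measure was the root mean square difference over the 4 arrays, which was 0.98 log2 units for Cdo1, cysteine dioxygenase, 1.16 for Pfkfb3, a regulator of glycolysis, and 1.33 for Bpgm, which makes bisphosphoglycerate. It was 1.43 for Cyp4a12a, a fatty acid hydroxylase induced by androgen, and 1.54 for Wfdc15b. Cdo1 had log2 ratios of -3.07 and -0.76 in mutant mice 1 and 2, against -3.06 and -3.05 in null mice 1 and 2. The median profile of the 6 genes was -4.08 and -0.61 in mutant mice 1 and 2, against -4.64 and -3.59 in null mice 1 and 2. By the same measure Svs2 lay 0.35 from this profile, Svs5 0.79, Svs4 1.11 and Pate4 1.15. Svs6 lay at 2.66 and Ceacam10 at 4.75, farther than all 5 nearest genes, so the profile does not stand for Svs6 and Ceacam10.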

How the data were processed

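Scanner files of 4 two-colour Agilent arrays were used. Per the file headers, spot intensity came from Feature Extraction 9.5.1.1. Version 8.5 is the one in the submitters' processing notes. The deposited log10 ratio is that of red over green processed signal, per the file headers. The authors' deposited table holds group means as a linear ratio to the pool for 26174 rows.

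Mean signals were corrected with normexp (offset 50) and loess-normalised within arrays (limma 3.58.1, R 4.3.3), with control spots at weight 0 and outlier flags left out. Tests covered the 24852 probes well above background in both mice of 1 genotype, or in the pool on all 4 arrays, and all 6 probes of the members were among them. lmFit and eBayes were run with a term per genotype, and p-values were adjusted by Benjamini-Hochberg over all of these. Every SE of a log2 value is that of this fit, with the spread pooled over both genotypes and moderated across probes. The fit was also run on simulated normal noise with known differences added, which cannot show dye effects or a dim array. Genes were named through RefSeq (GRCm38.p6), 22951 probes by accession, 6659 by current and 3109 by older symbol, and 8455 kept the name in the file. Promoters were aligned with Biopython. All arrays were on 1 slide and 1 scan, and the labels name separate mice.

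The members and the gene lists were chosen with earlier results of these data known. Named genes were the 6 members, up to 4 genes per list past the threshold or else the 2 brightest, and the 5 nearest profiles. Some of these genes are left out here. Alternatives were the background correction, median centring, the processed signals, the filter, 1 probe per gene, flags, a trended prior, a replicate block and leaving out each mouse.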

Additional observations from a re-analysis of the deposited data

How the results depend on the processing

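Over 8 planned results on counts and medians and 24 on single genes, most kept their direction and side of the threshold under every alternative run. For all 4 mice against the pool, 1 gene of the 6 passed with a normexp offset of 10 (Svs4, adjusted p = 0.0236) and 2 with median centring, against 0. Leaving out each mouse in turn gave 0 to 1 gene for all 4 mice against the pool and 0 to 1 for the null mice against the pool, with Svs4 passing without null mouse 2 (adjusted p = 0.0268 and 0.0320). Leaving out each mouse moved the median of mutant over null between -0.37 and 2.67. Without 1 mouse, mutant over null of single genes ranged from -0.31 to 2.92 for Svs2, from -0.43 to 4.31 for Pate4, from -1.15 to 0.27 for Svs6, from -0.58 to 1.52 for Ceacam10, from 0.79 to 2.42 for Svs4 and from 0.17 to 4.76 for Svs5. The sign turned without mutant mouse 2 for Svs2, Pate4 and Ceacam10 (-0.47), without null mouse 1 for Ceacam10 and without mutant mouse 1 for Svs6, and the cause was not tested. A genotype left with 1 mouse was assumed to vary like the other. Probes called for all 4 mice against the pool were 3 with the reported setting, 20 with offset 10, 6 with processed signals, 2 without background correction, 0 without the filter on dim probes, 0 with a trended prior, 0 with the replicate block, 36 without null mouse 1 and 323 without null mouse 2, and 0 without either mutant mouse. Null against pool gave 376 and mutant against null 9 without null mouse 2, against 0. With median centring the median of all probes was 0.38 for mutant over null, 0.60 for mutant mice and 0.14 for null mice. With loess these were 0.02, 0.03 and 0.02. With the replicate number as a block the median of mutant over null stayed at 1.46 and 0 genes of the 6 passed in any comparison. Residuals of same-numbered mice correlated at 0.0036, so the numbers were not taken as pairs. Dim spots, Svs6 and the pool channel of Ceacam10, limit the size of those ratios.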

Other observations

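Relatives of the 6 genes did not share 1 pattern. Of 14 other Ceacam genes 12 had a probe, 4 were bright enough to be tested and 0 passed in any comparison. Ceacam1, a cell adhesion protein of epithelium, had log2 ratios of -0.57 and 0.26 in mutant mice 1 and 2, against 0.60 and -0.25 in null mice 1 and 2, without the high values of Ceacam10. Ceacam2 was at 0.11 and 0.22 in mutant mice 1 and 2, against 0.85 and -0.25 in null mice 1 and 2. Of 14 other Pate genes 5 had a probe, 4 were tested and 0 passed. Pate14 was at 2.52 and 1.59 in mutant mice 1 and 2, against -0.43 and 1.96 in null mice 1 and 2, and thus above the pool in 3 of the 4 mice in which Pate4 was below it. Pate6, chosen here after its values were seen, was at -2.07 and -1.76 in mutant mice 1 and 2, against -1.25 and -2.01 in null mice 1 and 2, below the pool in every mouse as Pate4 was. Its mean was -1.77 ± 0.15 (SE, n = 4, adjusted p = 0.133 in limma), and its mouse channel was well above background in mutant mouse 2 and null mouse 2 alone. Acrv1, an acrosomal protein gene, was at -0.07 and 0.39 in mutant mice 1 and 2, against -0.57 and -0.07 in null mice 1 and 2.

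Among markers of other tissues, 6 of urothelium, 6 of smooth muscle, 4 of skeletal muscle and 5 of immune cells, 0 passed in any comparison. Over the smooth muscle markers the median log2 ratio was -0.13 and -0.52 in mutant mice 1 and 2, against 0.16 and -0.09 in null mice 1 and 2. Over the immune markers it was 0.49 and 0.33 in mutant mice 1 and 2, against -0.03 and 0.70 in null mice 1 and 2. Urothelial markers had medians of 0.25 and 0.12 in mutant mice 1 and 2, against -0.04 and 0.06 in null mice 1 and 2. Skeletal muscle markers had medians of -0.17 and -0.21 in mutant mice 1 and 2, against 0.06 and -0.14 in null mice 1 and 2.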
